A study of Homo sapiens with 24 samples.

Results

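The circadian clock genes of K562 cells were followed through 24 RNA sequencing libraries, taken every 2 h between 0 h and 46 h with 1 library each. The genes were chosen by name: PER1, PER2, PER3, CRY1, CRY2, BMAL1 (also called ARNTL), CLOCK, NR1D1, NR1D2 and DBP. Of these 10 genes, 9 were among the 12285 genes of the deposited expression table. BMAL1 was not in the table, which held only genes at 1 FPKM or more in at least 12 time points. FPKM counts sequenced fragments relative to transcript length and to the size of the library. K562 is an established human cell line from a leukaemia, with red-cell features such as globin expression. The cells were grown in RPMI with 10% bovine calf serum and antibiotics, a synchronous population was collected by centrifugal elutriation, which sorts cells by size, and portions were frozen at each time point. All libraries belonged to that 1 population, with no untreated or unsynchronized group and no replicate of any time point, so the spread used below was the scatter of each gene around its fitted curve. The labels name no step that sets the clock and none that stops the cell cycle. Since the S phase score described further on, though not the G2/M score, also ran with a period near a day, a circadian period and a cell-cycle period cannot be told apart by their length.

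The circadian clock is a feedback loop of transcription. CLOCK and BMAL1 bind DNA together at E-box sequences and switch on the PER and CRY genes, whose proteins return to the nucleus and repress CLOCK and BMAL1. In a second loop NR1D1 and NR1D2 (REV-ERB alpha and beta) repress BMAL1 at RORE sequences, which the ROR receptors activate, and DBP is a driven output factor that acts on D-box sequences. Time is also set by casein kinases and ubiquitin ligases that mark PER and CRY proteins for destruction. In tissues with a running clock, PER, NR1D and DBP transcripts rise and fall over the day and BMAL1 runs in the opposite phase.

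RefSeq start regions of 250 bases before to 50 bases after the start were available for all 10 genes, 15 regions in all. Shown are 7 of them, from NR1D1, CRY2, PER2 and PER3, on which the results turn, and from PER1, NR1D2 and BMAL1, whose windows carry an E-box, motifs of both loops and a RORE in that order. Each is written 5′ to 3′ on the strand of the gene in build GRCh38.p14, and capitals mark the motif letters found on either strand.
PER1, chr17:8152355-8152654, minus strand: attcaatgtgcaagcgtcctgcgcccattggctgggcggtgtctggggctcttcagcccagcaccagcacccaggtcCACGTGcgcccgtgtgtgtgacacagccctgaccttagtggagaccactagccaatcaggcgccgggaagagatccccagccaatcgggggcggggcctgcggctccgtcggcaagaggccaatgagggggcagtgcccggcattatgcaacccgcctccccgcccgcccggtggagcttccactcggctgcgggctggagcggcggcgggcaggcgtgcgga
PER2, chr2:238288561-238288860, minus strand: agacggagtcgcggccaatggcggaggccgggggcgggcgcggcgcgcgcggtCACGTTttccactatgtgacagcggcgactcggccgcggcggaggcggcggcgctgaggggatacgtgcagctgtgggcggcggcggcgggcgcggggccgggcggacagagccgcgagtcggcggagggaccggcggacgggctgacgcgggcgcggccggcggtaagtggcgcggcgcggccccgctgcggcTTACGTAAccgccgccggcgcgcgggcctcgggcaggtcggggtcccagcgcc
PER3, chr1:7784041-7784340, plus strand: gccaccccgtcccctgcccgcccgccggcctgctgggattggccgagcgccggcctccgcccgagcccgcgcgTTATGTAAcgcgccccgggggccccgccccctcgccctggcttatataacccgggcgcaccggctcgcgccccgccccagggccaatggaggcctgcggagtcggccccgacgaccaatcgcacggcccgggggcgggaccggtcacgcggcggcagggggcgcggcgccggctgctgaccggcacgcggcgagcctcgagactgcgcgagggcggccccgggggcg
CRY2, chr11:45847225-45847524, plus strand: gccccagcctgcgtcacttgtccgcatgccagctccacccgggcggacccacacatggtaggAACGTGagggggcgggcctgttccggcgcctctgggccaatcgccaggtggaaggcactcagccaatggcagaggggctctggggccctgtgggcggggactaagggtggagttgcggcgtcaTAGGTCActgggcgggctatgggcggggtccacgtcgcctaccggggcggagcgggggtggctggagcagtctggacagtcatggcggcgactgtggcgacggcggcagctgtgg
NR1D1, chr17:40100540-40100839, minus strand: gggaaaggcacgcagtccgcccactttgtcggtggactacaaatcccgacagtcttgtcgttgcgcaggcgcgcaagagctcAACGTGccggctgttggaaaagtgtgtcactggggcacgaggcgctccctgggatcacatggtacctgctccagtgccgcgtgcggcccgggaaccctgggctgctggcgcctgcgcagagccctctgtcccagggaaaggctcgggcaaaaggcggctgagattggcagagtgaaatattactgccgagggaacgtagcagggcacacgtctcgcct
NR1D2, chr3:23945871-23946170, plus strand: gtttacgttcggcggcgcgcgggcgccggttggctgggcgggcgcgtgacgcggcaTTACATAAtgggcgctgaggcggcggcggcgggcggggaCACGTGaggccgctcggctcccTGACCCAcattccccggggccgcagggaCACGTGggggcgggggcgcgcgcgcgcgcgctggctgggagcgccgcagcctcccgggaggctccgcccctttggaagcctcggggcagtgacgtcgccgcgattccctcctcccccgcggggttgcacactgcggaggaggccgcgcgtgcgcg
BMAL1, chr11:13277540-13277839, plus strand: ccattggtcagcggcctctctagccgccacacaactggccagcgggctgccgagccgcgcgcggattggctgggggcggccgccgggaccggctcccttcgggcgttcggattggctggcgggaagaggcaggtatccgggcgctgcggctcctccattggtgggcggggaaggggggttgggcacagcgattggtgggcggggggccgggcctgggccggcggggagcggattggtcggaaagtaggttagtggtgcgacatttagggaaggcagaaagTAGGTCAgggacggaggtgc

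The E-box CACGTG stood in the windows of PER1 and, at 2 places, of NR1D2, and 7.26% of all 35116 RefSeq start regions held it. The D-box, searched as TTATGTAA and TTACGTAA, stood in those of PER2, PER3 and NR1D2, against 1.01% of all regions. The RORE, searched as TAGGTCA and TGGGTCA, stood in 4 of the 15 regions, those of BMAL1, CRY2, CLOCK and NR1D2, against 5.69% of all regions. The E-box variant CACGTT, which was added to the search after the sequences had been seen, stood in 5 of the 15 regions, among them that of NR1D1, against 5.34% of all regions. No 2 of the marked motifs overlapped. These matches are a description of the letters and no measure of binding. The window of DBP held none of them.

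Levels of the clock genes were low to moderate and differed in order by gene. In the 22 libraries other than 16 h and 18 h, CRY1, a repressor of CLOCK and BMAL1, had the highest level, 21.9 ± 1.98 FPKM (mean ± SD over n = 22 time points). PER3 followed at 12.1 ± 1.46 FPKM, CRY2 at 10.6 ± 1.33 FPKM and PER1 at 8.21 ± 1.73 FPKM. CLOCK stood at 5.16 ± 0.42 FPKM, NR1D1 at 3.77 ± 1.19 FPKM and PER2 at 3.57 ± 0.60 FPKM. NR1D2 was at 2.92 ± 0.95 FPKM and DBP, the lowest, at 1.40 ± 0.27 FPKM. Only CRY1 lay apart from its neighbour in this order, its lowest value of 17.9 FPKM exceeding the highest of PER3, 15.2 FPKM, and each other pair of neighbours overlapped over the 22 time points. These levels are per length of transcript.

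**Figure D1:**
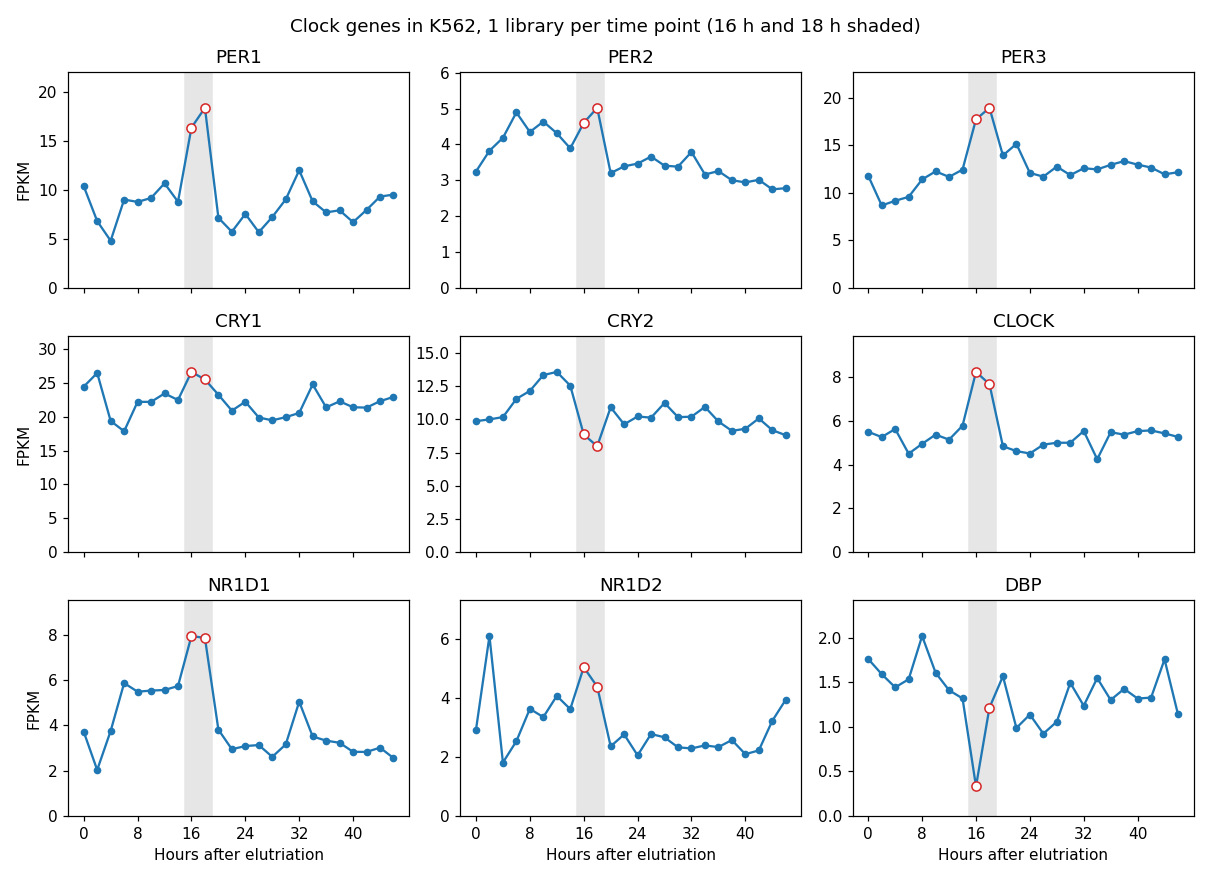
FPKM of the 9 clock genes against hours after elutriation, 1 library per point, each panel on its own axis from 0, with 16 h and 18 h shaded and marked by open circles. NR1D1, PER2 and CRY2 were higher in each library from 6 h to 14 h than in any from 20 h on, and PER1, PER2, PER3, CRY1, CLOCK and NR1D1 had their highest value at 16 h or 18 h.

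The libraries at 16 h and 18 h stood apart from all others and are named by the study as anomalous. Summed FPKM was 456791 to 520382 in the 22 other libraries and reached 591309 in these, and as many as 115 genes were at 0 against at most 58. PER1 was at 16.4 FPKM at 16 h and 18.4 FPKM at 18 h, 2.15 times its mean at 12, 14, 20 and 22 h. NR1D1 was at 7.96 and 7.87 FPKM there, 1.75 times these neighbours. CRY2 went the other way, to 8.87 and 7.98 FPKM, 0.72 times its neighbours. DBP was at 0.33 FPKM at 16 h and 1.21 FPKM at 18 h, and PER3 at 17.7 and 18.9 FPKM. The median of all genes was 1.10 times its neighbours and the middle 90% of genes ranged from 0.37 to 2.43 times, so each of these clock genes lay within the range of the transcriptome. The library at 32 h, mildly irregular, had the most genes at 0 (58) and the highest median level of the 22, so the high values of PER1 and NR1D1 at 32 h belong to a library that itself stood apart. Without 6 h and 32 h as well, the 24 h fit described next gave NR1D1 an adjusted p of 0.0176. The limma fits leave out 16 h and 18 h, and the JTK test was run with and without them. The erythroid markers of K562 were all present, while the T-cell marker CD3D had a median of 5.85 FPKM and the fibroblast marker COL1A2 one of 3.04 FPKM.

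The first question was whether the clock genes followed a 24 h rhythm. A cosine of 24 h with a linear drift was fitted to log2(FPKM + 1) with limma over the 22 libraries, and the F-test of the cosine was adjusted over the 12249 genes that averaged 1 FPKM or more. It called 2 of the 9 clock genes, NR1D1 and CRY2, at an adjusted p of 0.05 or below, and over all genes 1850 were called, 15.1%. The median amplitude, the height of the curve above its mean, was 0.099 on the log2 scale for the clock genes and 0.103 for all genes. A share of 2 in 9 genes and this median did not set the clock genes apart from the transcriptome.

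NR1D1, the repressor of the second loop, had the largest fitted wave. Its level was 3.72 FPKM at 0 h, 2.03 at 2 h and 3.76 at 4 h. From 6 h to 14 h it was between 5.49 and 5.87 FPKM in all 5 libraries, and from 20 h to 46 h it was between 2.56 and 3.81 FPKM except for 5.05 FPKM at 32 h. The fitted amplitude was 0.29 ± 0.07 (SE) on the log2 scale with a peak at 11.9 ± 1.07 h, and the adjusted p was 0.0193 by limma. It stayed below 0.05 in each fit that left out 1 of the 22 time points, with an adjusted p of 0.0162 to 0.0419. At fitted periods of 20 h and 28 h it was 0.0576 and 0.0898. NR1D1 shares 263 of its 2772 exon bases in GENCODE 29 with THRA on the opposite strand. THRA, at 9.13 to 14.9 FPKM over all 24 libraries, had an adjusted p of 0.169 by limma for the same curve. The strand of the reads is not stated, so reads from these shared bases cannot be assigned to one gene. DBP likewise shares 661 of its 6544 exon bases with SPHK2 on the opposite strand, for which the 24 h fit gave an adjusted p of 0.0152. PER3 shares 868 of its 8099 exon bases with UTS2 on the opposite strand, a gene not in the table.

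CRY2, a repressor of CLOCK and BMAL1, had a smaller wave. It climbed from 9.87 FPKM at 0 h to 13.6 FPKM at 12 h and was at 8.81 to 11.3 FPKM from 20 h to 46 h. Amplitude was 0.12 ± 0.03 with a peak at 11.6 ± 1.36 h and an adjusted p of 0.0492 by limma. Only 4 of the 22 fits without 1 time point kept this call, and their adjusted p-values ran from 0.0301 to 0.115. With all 24 time points the adjusted p was 0.0889.

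PER2, a repressor of the core loop, missed the threshold narrowly, with an amplitude of 0.12 ± 0.03, a peak at 8.66 ± 1.23 h and an adjusted p of 0.0537 by limma. Among the 22 libraries it was highest at 6 h, at 4.89 FPKM, and lowest at 44 h, at 2.75 FPKM, and it was at 5.02 FPKM at 18 h. The other 6 clock genes had adjusted p-values between 0.236 and 0.793. For PER1 the amplitude was 0.14 ± 0.07, for PER3 0.099 ± 0.050 and for CRY1 0.095 ± 0.044. For CLOCK, the partner of BMAL1, it was 0.059 ± 0.041, and its level stayed within 4.24 to 5.78 FPKM over the 22 libraries. NR1D2 had 0.084 ± 0.103 and DBP 0.077 ± 0.051. With errors of this size, the fits do not show that PER1 and NR1D2 were flat. PER1 dipped to 4.80 FPKM at 4 h and was highest among the 22 libraries at 32 h, at 12.0 FPKM, and NR1D2 was at 6.11 FPKM at 2 h beside 1.81 FPKM at 4 h.

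**Figure D2:**
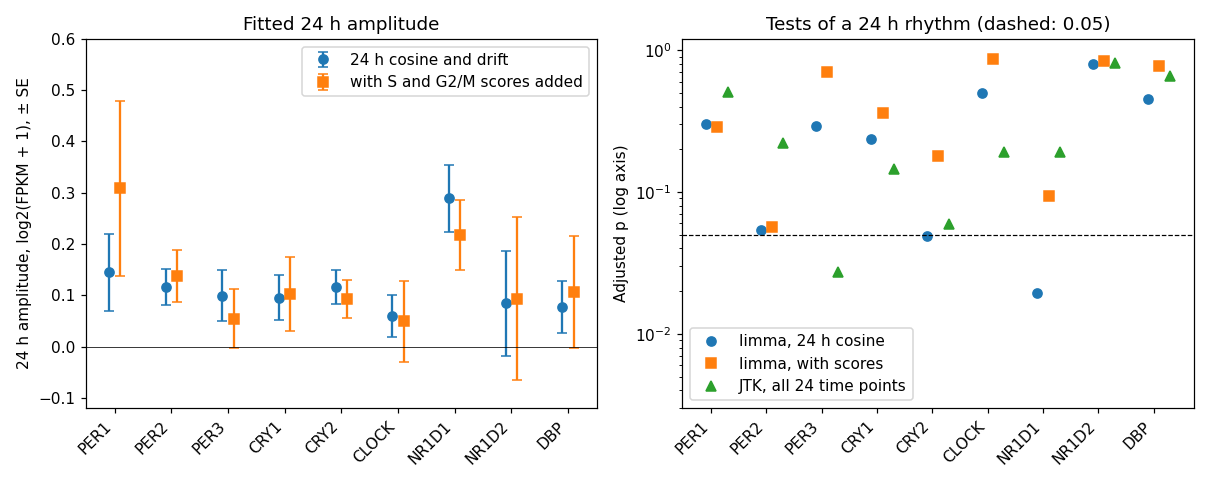
Left, fitted 24 h amplitude on log2(FPKM + 1) with its SE for each clock gene, without and with the S phase and G2/M scores in the fit. Right, adjusted p on a log axis for the same fits and for the JTK test, with the dashed line at 0.05; only NR1D1 and CRY2 in the first fit and PER3 in the JTK test lie below it.

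A rank test called another gene. JTK takes the largest Kendall S between the order of a gene's FPKM values and the order of a 24 h cosine over 12 phases, here over all 24 time points with p from 100000 random orderings of the time points. It called 1 of the 9 clock genes, PER3, with an adjusted p of 0.0273 and its best phase at 16 h, and 1602 of 12285 genes, 13%. PER3 was at 8.66 to 9.57 FPKM from 2 h to 6 h, at 17.7 and 18.9 FPKM at 16 h and 18 h, and at 11.7 to 13.3 FPKM over the second day. Without 16 h and 18 h its adjusted p was 0.0773, and with both replaced by interpolated values 0.0410. In the deposited cleaned table it was 0.00765, and after quantile normalization 0.00508. CRY2 had an adjusted p of 0.0595 and NR1D1 0.190 by the JTK permutation test. These settings differ from those of the limma fit in the libraries used and in drift. With linear drift removed first, JTK called NR1D1, with an adjusted p of 0.0220, and gave PER3 0.0616. Without 16 h and 18 h it called PER2, with an adjusted p of 0.0404, and with both interpolated PER2 had 0.0302.

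The second question was whether a 24 h wave remained once the cell cycle was accounted for. An S phase score and a G2/M score, the mean Z-scores of 42 and 53 genes, were added to the limma fit. With Z-scores taken over all 24 libraries, the S phase score among the 22 libraries was highest at 2 h, at 0.80, and lowest at 14 h, at −0.99. At 16 h and 18 h, outside this fit, it was 0.64 and 1.03. For the fit, the Z-scores were taken over the 22 libraries alone. A 24 h cosine with drift fitted that S phase score with an R2 of 0.740, with the best period at 23 h and the peak at 3.11 h. For the G2/M score, drift alone gave an R2 of 0.442 and the cosine raised it to 0.464, with the best period at 36 h, the end of the scan. Beside the scores, 0 of the 9 clock genes were called, and 1108 of 12249 genes were, 9.05%. At an unadjusted p of 0.05 or below there were 3 clock genes, PER2, NR1D1 and CRY2, beside 3353 of 12249 genes. PER2 had an amplitude of 0.14 ± 0.05 and an adjusted p of 0.0565, NR1D1 0.22 ± 0.07 and 0.0942, and CRY2 0.093 ± 0.038 and 0.179, all by limma. The amplitude of NR1D1 lay about 1 SE below the value without scores. The S phase score and the cosine share much of their course over the 22 time points. With all 24 time points in this fit, CLOCK, NR1D1 and PER2 were called with adjusted p-values of 0.00416, 0.00423 and 0.00539, among 6095 genes in all.

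**Figure D3:**
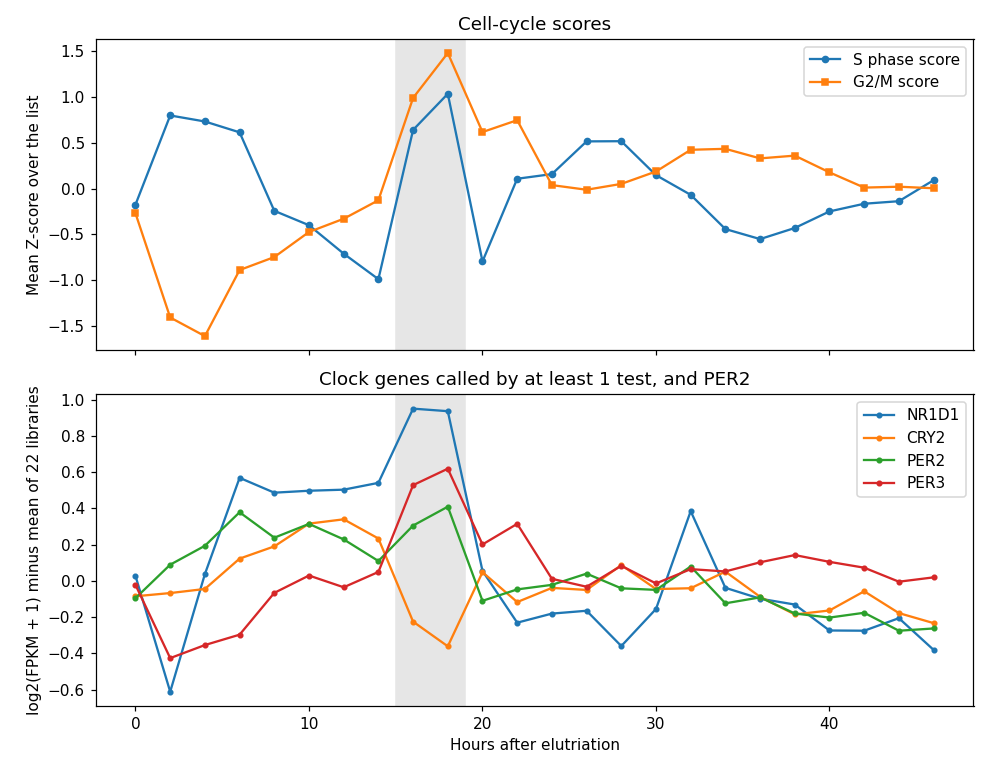
Top, S phase and G2/M scores (mean Z-score over each gene list) against hours after elutriation. Bottom, log2(FPKM + 1) of NR1D1, CRY2, PER2 and PER3 minus the mean of the 22 libraries, with 16 h and 18 h shaded. Both scores had their highest value at 18 h. Among the other libraries the S phase score was high at 2 h to 6 h and again, at 0.52, at 26 h and 28 h, and NR1D1 was high at 6 h to 14 h with a single high value at 32 h on the second day.

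The third question was whether the wave came back on the second day. A level and a 24 h curve for each day were fitted in 1 limma model of the 22 libraries. The first day held 10 libraries from 0 h to 22 h and the second 12 from 24 h to 46 h. Both days shared 1 residual spread, so errors and p-values of each day rest on the scatter of both. This comparison was added after the values had been seen. On the first day limma called 4 of the 9 clock genes, PER2, PER3, CRY2 and NR1D1, and 29.2% of all genes. On the second day it called 0 of the 9 and 3.82% of all genes. PER2 and CRY2 were the 2 clock genes at an unadjusted p of 0.05 or below, a threshold not counted over all genes. These counts moved with the first-day libraries used. The 12 second-day libraries were the same in each setting, as were the second-day amplitudes of the clock genes, such as 0.13 for PER2. The second-day counts thus moved with the shared residual spread and not with the second-day curves. With all 24 time points, 0 of 12253 genes were called on the second day and 0 clock genes reached an unadjusted p of 0.05 there. With 0 h and 2 h also left out of the 10 first-day libraries, 6 of the 9 clock genes were called on the first day, beside 2955 of 12244 genes. On the second day 0 of the 9 were then called, beside 1177 of 12244 genes, and 3 clock genes reached an unadjusted p of 0.05. NR1D1 had an amplitude of 0.42 ± 0.08 on the first day and 0.17 ± 0.08 on the second, and the difference of its curves had an adjusted p of 0.227. For PER2 the amplitudes were 0.22 ± 0.04 and 0.13 ± 0.04, with an adjusted p of 0.223 for the difference of the curves. For PER3 they were 0.30 ± 0.06 and 0.056 ± 0.046, with an adjusted p of 0.0741. This limma test takes amplitude and peak time together, and amplitude alone was not tested. CRY2 was the 1 clock gene whose curves differed, with amplitudes of 0.21 ± 0.03 and 0.093 ± 0.033, peaks at 12.1 h and 6.16 h of the day, and an adjusted p of 0.0302 for the difference, which 4.68% of all genes reached. With all 24 time points the adjusted p of CRY2 was 0.236 and that of PER3 0.0260.

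**Figure D4:**
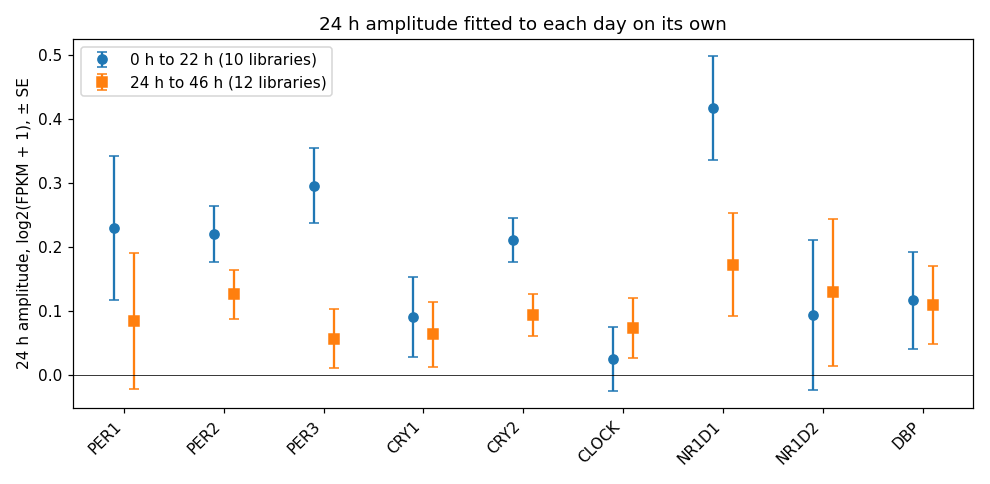
24 h amplitude on log2(FPKM + 1) with its SE, fitted to 0 h to 22 h (10 libraries) and to 24 h to 46 h (12 libraries). Both days were in 1 model, so the SE of each rests on the scatter of both. NR1D1, PER2, PER3 and CRY2 had larger fitted amplitudes on the first day. The test of the difference between the curves, which takes amplitude and peak time together, passed for CRY2 only.

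PER2, NR1D1 and CRY2 also had a falling linear drift over the series, a term that does not tell a slow decline from a step. NR1D1 was at 5.49 to 5.87 FPKM from 6 h to 14 h, at 3.81 FPKM at 20 h and at 2.56 FPKM at 46 h. In the linear term of the first fit, 3 of the 9 genes fell and 0 rose, also 0 at an unadjusted p of 0.05 or below, beside 12.4% of all genes falling and 19.5% rising. PER2 fell by 0.20 ± 0.05 (SE) on the log2 scale per day with an adjusted p of 0.0019 by limma. NR1D1 fell by 0.30 ± 0.09 per day with an adjusted p of 0.0157, and CRY2 fell by 0.16 ± 0.05 with 0.0129. These 3 genes are those that were higher at 6 h to 14 h, and wave and drift come from the same fit. Each was called as falling in all 22 fits without 1 time point, but with all 24 time points the adjusted p of CRY2 was 0.212. Beside the cell-cycle scores, limma called 1 of the 9 clock genes as falling, and 907 of 12249 genes.

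No single period was shared by the 9 genes. Among periods of 12 h to 36 h, the residuals were smallest at 23 h for NR1D1, 22 h for PER2 and 20 h for CRY2. For CLOCK the best period was 14 h, for NR1D2 16 h, for PER1 18 h and for CRY1 12 h, and for DBP and PER3 it was 34 h and 36 h, at or near the end of the scan. A 24 h cosine took up 48.9% of the variance left after drift for NR1D1, 49.3% for PER2 and 43.7% for CRY2, and 3.08% to 21.2% for the other 6. Over all genes the median best period was 23 h and the median share at 24 h 20.7%.

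Among the genes most like each clock gene, chosen by the highest Pearson r over the 22 time points from those averaging 5 FPKM or more, PER3 was closest to KIF14, a mitotic kinesin, with r = 0.94, and to SRPK1, a splicing kinase, with r = 0.94. NR1D1 was closest to IKZF1, a haematopoietic transcription factor, with r = 0.95, and PER2 to ZDHHC12 with r = 0.96. CRY2 was closest to CNPPD1 with r = 0.92 and NR1D2 to NFE2L2, the regulator of antioxidant genes, with r = 0.83. CLOCK had no gene above r = 0.60, with ESCO1 the nearest. Each is the largest of 8755 or 8756 values over the same libraries and is given as a description.

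Partners of the loop were only partly represented. Of 13 other loop factors, TEF, NFIL3, BHLHE40, TIMELESS and TIPIN were in the table. NPAS2, BMAL2, HLF, BHLHE41 and CIART were among those not analysed here. TIPIN, which with TIMELESS protects replication forks, was the 1 of the 5 called by the 24 h fit, 20% beside 15.1% of all genes. Its amplitude was 0.14 ± 0.03, with a peak at 1.80 h and an adjusted p of 0.0144 by limma. TIPIN is also in the S phase list, and beside the cell-cycle scores its adjusted p was 0.486. NFIL3, a repressor at D-box sequences, was called by JTK over all 24 time points with an adjusted p of 0.0214. It was at 7.40 and 8.15 FPKM at 16 h and 18 h, and the limma 24 h fit without them gave an adjusted p of 0.276. BHLHE40, a repressor at E-box sequences, was at 23.1 FPKM at 0 h and 24.1 FPKM at 46 h, with adjusted p-values of 0.348 for the cosine and 0.0658 for drift.

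Kinases, phosphatases and ligases that act on clock proteins gave 3 of 22 called genes in the 24 h fit, 13.6%, and the 19 coregulators gave 4, 21.1%, beside 15.1% of all genes. CSNK1D, a casein kinase that phosphorylates PER proteins, ranged from 48.4 to 88.5 FPKM over all 24 libraries. In the fit without 16 h and 18 h its amplitude was 0.18 ± 0.04, with a peak at 5.69 h. PPP1CA, a phosphatase subunit, peaked at 9.81 h with an amplitude of 0.11 ± 0.03 and CSNK2A2 at 2.83 h with 0.095 ± 0.028. CREBBP, a histone acetyltransferase, had an amplitude of 0.32 ± 0.07 with a peak at 5.28 h, KMT2A 0.23 ± 0.05 at 1.78 h, CRTC1 0.28 ± 0.08 at 8.80 h and WDR5 0.085 ± 0.022 at 9.61 h. Of 12 clock output genes 2 were called, 16.7% beside the same 15.1%. They were WEE1, the kinase that holds back mitosis, with 0.16 ± 0.03 at 0.48 h, and PNRC1 with 0.40 ± 0.09 at 22.7 h. Of these genes and TIPIN, 10 in all, 4 were also called with all 24 time points: PPP1CA, CSNK1D, WDR5 and PNRC1. CREBBP then had an amplitude of 0.037 and an adjusted p of 0.969. Of the fits without 1 time point, CSNK2A2 was called in 2 of 22 and CRTC1 in 12 of 22. Beside the cell-cycle scores, PPP1CA, WDR5 and PNRC1 were called, with adjusted p-values of 0.0335, 0.0292 and 0.0481, and the other 7 were not. By comparison 27 of the 43 S phase genes were called, with a median peak at 2.96 h, and 3 of 53 G2/M genes.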

How the data were processed

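RNA from 24 K562 samples was sequenced, 1 per time point. Per the labels, the authors aligned reads with STAR and made FPKM values with Cufflinks and Cuffnorm on GRCh37, and versions are not given in the sources used here. The deposited FPKM table is normalized across libraries and holds no counts, and whole reads could not be recovered from its low values, so the depth per library is unknown and no counting interval is given. The deposited cleaned table holds Z-score quantile normalized values, a score, used here only as an alternative. No coordinates of GRCh37 are printed, and start regions come from RefSeq on GRCh38.p14. Ensembl identifiers were matched to symbols for 12123 of 12285 genes.

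The clock genes and all gene lists were chosen with earlier results of these data known. Fits used limma 3.58.1 in R 4.3.3 (trend and robust empirical Bayes) on log2(FPKM + 1) without 16 h and 18 h for genes averaging 1 FPKM or more, with Benjamini-Hochberg adjustment over all genes tested. On this scale, changes of low genes are understated. JTK was computed in Python on FPKM as deposited. Successive time points come from 1 culture, so the tests treat points as independent that may not be, and p-values measure only the scatter around the curve. Text genes were all clock genes, up to 4 called genes of largest amplitude per other list (other lists of the cell cycle and markers by counts), and the nearest genes by r. NFIL3, BHLHE40, THRA and SPHK2 were named after their values were seen. Alternatives covered libraries left out, pseudocount, filters, scaling, drift and period.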

Additional observations from a re-analysis of the deposited data

Results flagged for a closer look

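CRY2 drew attention because its 24 h curve differed between the first and the second day by the test of the difference itself, with an adjusted p of 0.0302 by limma. Without 0 h and 2 h as well the adjusted p was 0.0397, and with all 24 time points 0.236. The levels of CRY2 at 16 h and 18 h, 8.87 and 7.98 FPKM, move with that last value, and their part in it was not tested.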

How the results depend on the processing

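The 24 h fit of the 22 libraries called 1850 genes, and 1073 at a period of 26 h, 531 at 20 h, 621 at 28 h and 1022 without 0 h and 2 h as well, an alternative chosen after seeing the data; it called 1090 to 2171 genes when 1 time point was left out. With all 24 time points it called 1419 of 12253 genes, and without 6, 16, 18 and 32 h 1433 of 12246. With a mean of at least 10 FPKM it called 1398 of 7120, and with upper-quartile scaling 1726 of 12259. With quadratic drift it called 2070 of 12249, and at 22 h 1811 of 12249. Of the 9 clock genes the main fit called 2. The fit called 1 with all 24 time points, without 6, 16, 18 and 32 h, and with a mean of at least 10 FPKM (3 clock genes left to test). It also called 1 with upper-quartile scaling, with quadratic drift, at 20 h and 26 h, and without 0 h and 2 h. It called 3 at 22 h, 0 at 28 h, and 1 to 2 without 1 time point. Beside the cell-cycle scores, 1108 genes were called, against 6095 with all 24 time points, 343 without 6, 16, 18 and 32 h, 698 with median centring, 7 with upper-quartile scaling, 2 with quantile normalization, 285 with quadratic drift, 1718, 680 and 136 at 22, 26 and 28 h, 190 without 0 h and 2 h, and 265 to 1306 without 1 time point. Of the clock genes, 3 were called there with all 24 time points, 3 at 22 h, 1 at 20 h, and 0 to 1 without 1 time point. At 20 h, 991 of 12249 genes were called. JTK called 381 of 12285 genes at 20 h, 447 at 28 h and 2264 with 16 h and 18 h interpolated. Of the 9 clock genes it called 0, 0 and 2 in these settings. Drift fell for 3 clock genes in the main fit. With a mean of at least 10 FPKM it fell for 1 of the 3 left, where 1089 of 7120 genes fell and 1227 rose. With all 24 time points it fell for 2, where 1076 of 12253 genes fell and 1645 rose. CRY2 then had an adjusted p of 0.212 by limma. Without 1 time point drift fell for 3 to 4, with 1254 to 1773 genes falling and 2149 to 2694 rising. Median centring moved the split of falling and rising genes from 1523 and 2385 to 2253 and 1863. The second-day curve was called for 468 genes, 0 with all 24 time points and 1177 without 0 h and 2 h. In each of these fits the second-day libraries were the same, and the residual spread, shared with the first day, differed. Fewer genes tested lowers the counts under the stricter filter, and for the remaining changes the cause was not tested. No paired analysis was possible because there is 1 group with 1 library per time point.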
